A study of Mus musculus with 8 samples.

Results

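The acetylcholine receptor genes described here are 10 mouse genes: 6 for subunits of nicotinic receptors (Chrna3, Chrna4, Chrna5, Chrna7, Chrnb2 and Chrnb4) and 4 for muscarinic receptors (Chrm1, Chrm2, Chrm3 and Chrm4). They were chosen by name, and every non-control probe whose RefSeq identifier belongs to them was taken, which gave 11 of 55681 probes. Of the 10 genes, 6 gave a signal well above background on 2 or more of the 8 arrays and were thus among the 26258 genes tested; Chrna4, Chrm1, Chrm2 and Chrm3 were not. The samples are one-colour Agilent arrays of 4 groups, with 2 arrays in each. The first group is the 2/4 clone of the N18TG2 line given retinoic acid (RA), and the second is the same clone untreated. The third is the parental N18TG2 line given RA, and the fourth is the parental line untreated.

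N18TG2 is a mouse neuroblastoma line, and the 2/4 clone is a derivative labelled as a ChAT-expressing line, ChAT being choline acetyltransferase, which makes acetylcholine. It is 1 clone, kept under the antibiotic G418 at 200 µg/mL, so the clone differs from its parent in selection as well. RA, a vitamin A derivative that drives neuronal differentiation in many neuroblastoma lines, was given at 1 µM, dissolved in DMSO, in medium with 1% serum; cells were grown in medium with 10% serum. The labels do not say how long RA was given or which medium the untreated cells were in, so RA and low serum cannot be told apart. The labels also describe treatments with carbachol, a cholinergic agonist, and with the antagonists atropine and mecamylamine, but no array here carries such a label. The labels do not tell whether the 2 arrays of a group stand for separate cultures, so the p-values may measure technical spread only.

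Nicotinic receptors are ion channels made of 5 subunits around a cation pore. Chrna3 and Chrnb4 encode the core subunits of the receptor of autonomic ganglia, Chrna5 encodes an accessory subunit that joins it, Chrna4 and Chrnb2 encode the main receptor of the brain, and Chrna7 encodes a subunit that can form a channel by itself. Muscarinic receptors are coupled to G proteins: those encoded by Chrm1 and Chrm3 act through Gq and phospholipase C, and those encoded by Chrm2 and Chrm4 act through Gi and Go. Sympathetic neurons and the tumours of their lineage use both families.

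Levels are given as log2 intensity relative to the 75th percentile of all non-control spots of the same array, so 0 is the level of that percentile. Each probe has its own brightness, so levels are compared between groups and not between genes. The 75th percentile itself ran from 264.8 to 1264 intensity units, and 47.8% to 62.8% of probes were well above background on 7 arrays, against 71.9% on clone RA replicate 1. The scanner software marked that array for evaluation, and its correlation across genes with the other clone RA array was r = 0.963, against 0.983 to 0.987 for the other pairs. Row 1 of the slide held the untreated clone and parental RA arrays, and row 2 the clone RA and parental untreated arrays, so row and group cannot be told apart except in averages. The probe for Chat, the gene of ChAT, read 1.10 and -2.58 on clone RA arrays, -3.73 and -2.71 on untreated clone arrays, -3.22 and -5.06 on parental RA arrays and -2.63 and -4.57 on parental untreated arrays. Its difference between clone and parental cells did not pass the test either with RA (adjusted p = 0.0997) or untreated (adjusted p = 0.897), and whether the probe reads the introduced gene was not tested. The extraction protocol of the labels names hippocampus, but the probes of the hippocampal markers Neurod2, Neurod6 and Prox1 were above background on 0 of 8 arrays. Of 12 markers of sympathoadrenal neuroblasts, the lineage of neuroblastoma, 11 or 12 were above background on every array.

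Chrna3, Chrna5 and Chrnb4 lie next to each other on chromosome 9, in the order Chrna5, Chrna3, Chrnb4, and Chrnb2 lies on chromosome 3. Their promoter windows, from 250 bases before to 50 bases after the annotated start, are shown for these reasons. The first 3 share a locus, but Chrnb4 alone of them was not called between the lines with RA. Chrnb2 was higher on every clone array. The sequences are those of RefSeq, build GRCm38.p6, and capitals mark GGGCGG on either strand, the core of the GC box bound by Sp1. The Chrna5 gene has 2 annotated starts and so 2 windows.
Chrna3: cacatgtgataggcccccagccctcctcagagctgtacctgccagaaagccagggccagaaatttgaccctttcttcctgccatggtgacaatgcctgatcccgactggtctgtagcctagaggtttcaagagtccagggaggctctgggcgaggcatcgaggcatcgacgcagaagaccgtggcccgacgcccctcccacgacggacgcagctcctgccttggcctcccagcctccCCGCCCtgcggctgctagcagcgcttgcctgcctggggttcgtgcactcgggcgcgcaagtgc
Chrna5 upstream start: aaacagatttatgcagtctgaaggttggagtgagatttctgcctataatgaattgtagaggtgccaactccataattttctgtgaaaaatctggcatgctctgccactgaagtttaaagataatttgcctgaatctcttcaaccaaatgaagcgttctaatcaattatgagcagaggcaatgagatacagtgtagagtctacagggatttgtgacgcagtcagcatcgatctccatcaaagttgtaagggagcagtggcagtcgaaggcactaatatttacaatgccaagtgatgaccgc
Chrna5 downstream start: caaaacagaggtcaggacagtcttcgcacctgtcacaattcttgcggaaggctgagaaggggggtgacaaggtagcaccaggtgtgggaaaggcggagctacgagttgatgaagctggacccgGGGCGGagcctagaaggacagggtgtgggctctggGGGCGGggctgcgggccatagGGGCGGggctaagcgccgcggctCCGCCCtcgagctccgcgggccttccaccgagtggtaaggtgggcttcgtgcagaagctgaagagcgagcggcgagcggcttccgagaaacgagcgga
Chrnb4: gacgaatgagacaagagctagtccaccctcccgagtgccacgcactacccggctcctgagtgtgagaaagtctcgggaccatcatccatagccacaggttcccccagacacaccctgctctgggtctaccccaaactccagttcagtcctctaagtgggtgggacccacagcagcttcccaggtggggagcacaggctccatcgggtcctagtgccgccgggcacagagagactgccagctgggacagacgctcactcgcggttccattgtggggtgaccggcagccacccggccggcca
Chrnb2: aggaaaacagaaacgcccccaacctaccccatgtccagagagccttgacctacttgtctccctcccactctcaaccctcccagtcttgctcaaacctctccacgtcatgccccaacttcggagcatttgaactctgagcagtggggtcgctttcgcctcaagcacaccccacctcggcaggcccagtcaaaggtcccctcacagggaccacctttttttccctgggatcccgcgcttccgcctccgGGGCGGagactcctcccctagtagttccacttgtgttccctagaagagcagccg
The Chrna3 window lies at chr9:55026513-55026812 on the minus strand, the Chrna5 windows at chr9:54980630-54980929 and chr9:54981238-54981537 on the plus strand, the Chrnb4 window at chr9:55048495-55048794 on the minus strand and the Chrnb2 window at chr3:89764583-89764882 on the minus strand. GGGCGG occurred 4 times in the downstream Chrna5 window, 1 time each in those of Chrna3 and Chrnb2, and 0 times in the upstream Chrna5 window and in that of Chrnb4. Of 32851 promoter windows of the same length in the RefSeq table, 35.7% hold it. The E-box CANNTG, the same on both strands, occurred 3 times in the Chrna3 window and 2 times in each of the other 4, and 72.3% of all windows hold it. AGGTCA, the hexamer of nuclear receptor sites such as those of RA receptors, was found on either strand 1 time each in the downstream Chrna5 window and the Chrnb2 window, against 16.3% of all windows. A match describes the letters and does not show that a factor binds there. RefSeq windows were matched for 9 of the 10 genes, all but Chrm1.

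Among the 3 genes of the chromosome 9 cluster, Chrna3 and Chrna5 were higher in the clone than in the parental line when both had received RA, while Chrnb4 was not called in that comparison. Across the arrays Chrna3 and Chrna5 kept close to each other, with the highest values in the clone with RA and the lowest in the parental line with RA. Chrnb4 was highest in untreated parental cells. In the parental line RA minus untreated was alike for Chrna3, Chrna5 and Chrnb4, at -1.12, -1.19 and -1.31, and none passed the test. Whether the genes differed from each other was not tested. Because whole cultures were measured, more cells with a transcript and more transcript per cell cannot be told apart.

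The level of Chrna3 was -0.68 and -0.21 on the clone RA arrays, -1.92 and -1.47 on the untreated clone arrays, -2.50 and -2.27 on the parental RA arrays and -1.16 and -1.37 on the parental untreated arrays. No 2 groups overlapped, and the order ran from clone RA through parental untreated and clone untreated to parental RA. The share of all genes in which no 2 groups overlap was not counted. After RA the clone was above the parental line by a log2 difference of 1.94 ± 0.31 (SE, 2 arrays in each group; adjusted p = 0.00573), a 3.83-fold higher intensity. This difference was called under all 20 settings, the one used here and 19 alternatives, at 1.56 to 2.17. Untreated, the clone minus the parental line gave -0.43 with a 95% interval of -1.17 to 0.31 (adjusted p = 0.473). The RA response, RA minus untreated, was 1.25 ± 0.31 in clone cells (adjusted p = 0.0738) and -1.12 ± 0.31 in parental cells (adjusted p = 0.157), and neither passed the test. The difference between these responses was 2.37 ± 0.44 and did not pass it either (adjusted p = 0.0924). RA and untreated arrays lay apart in opposite directions in the clone and its parent, as here, for 8.14% of all genes.

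The Chrna5 probe read -2.74 and -1.96 on clone RA arrays, -3.82 and -2.88 on untreated clone arrays, -4.36 and -3.88 on parental RA arrays and -3.02 and -2.85 on parental untreated arrays. The groups followed the order seen for Chrna3, except that the ranges of parental untreated and clone untreated arrays overlapped. After RA the clone was above the parental line by 1.77 ± 0.43 on the log2 scale (adjusted p = 0.0269), or 3.40-fold. That call was made under 11 of 20 settings, at 1.01 to 2.16; it was lost without either parental RA array (adjusted p = 0.12 and 0.066), without either parental untreated array (adjusted p = 0.0502 each) and without clone RA replicate 2 (adjusted p = 0.0704). The RA response was 1.00 in clone cells and -1.19 in parental cells, with adjusted p = 0.238 and 0.268, and their difference of 2.19 ± 0.61 had an adjusted p of 0.183. The annotated spans of Chrna5 and Chrna3 overlap, and whether a probe lies where they do was not tested.

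Chrnb4 had -2.37 and -2.53 on clone RA arrays, -2.72 and -2.06 on untreated clone arrays, -2.75 and -2.62 on parental RA arrays and -1.36 and -1.38 on parental untreated arrays. The parental untreated pair stood above the other 6 arrays, whose clone groups overlapped. The share of all genes with 1 group apart from the other 6 arrays was not counted. With RA the clone minus the parental line was 0.24, with a 95% interval of -0.49 to 0.96 (adjusted p = 0.616). Untreated, the difference was -1.02 ± 0.31 (adjusted p = 0.0918), and RA minus untreated in the parental line was -1.31 ± 0.31 (adjusted p = 0.107). The clone's RA response of -0.06 had an interval of -0.79 to 0.66.

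**Figure D1:**
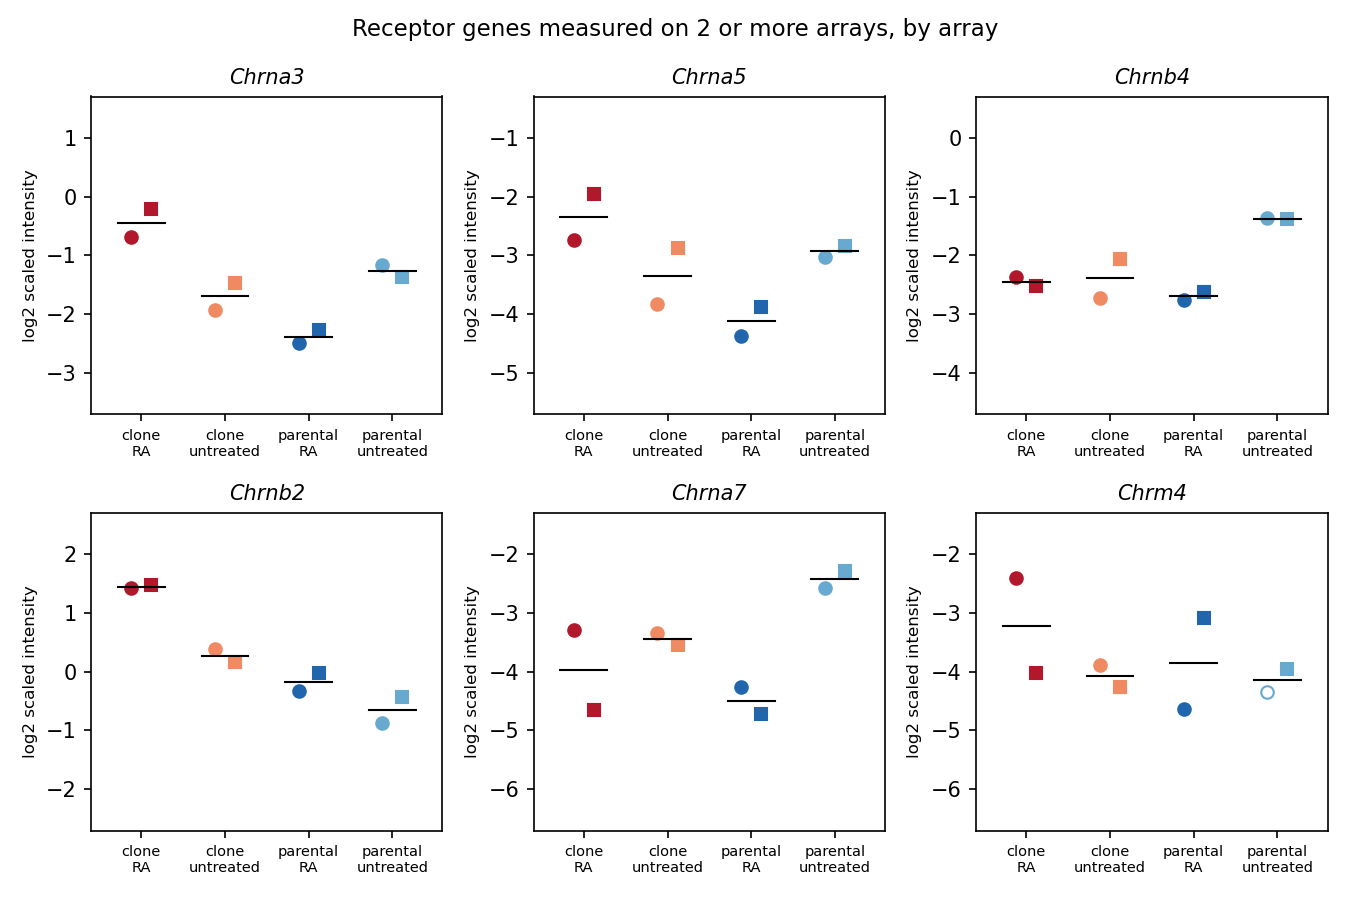
Levels of the 6 tested receptor genes on each array, as log2 intensity relative to the array's 75th percentile, by group (circles are replicate 1, squares replicate 2, bars the mean of the 2 arrays; a hollow mark is not well above background). All panels span the same log2 range with their own origin. Chrna3 and Chrna5 are highest in the clone with RA and lowest in the parental line with RA, Chrnb2 is higher on all clone arrays, and Chrnb4 and Chrna7 are highest in untreated parental cells.

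The summed scaled intensity of the 12 sympathoadrenal markers was 548 and 468 in the clone with RA, 289 and 291 in the untreated clone, 146 and 99.0 in RA-treated parental cells and 314 and 235 in untreated parental cells. Chgb, which encodes a protein of secretory granules, made up 23.2% to 71.0% of that sum on each array. Without Chgb, a choice made after seeing the data, the sum of the other 11 was 159 and 194 in the clone with RA, 90.8 and 96.7 in the untreated clone, 87.3 and 76.1 in RA-treated parental cells and 162 and 119 in untreated parental cells, so the clone with RA and the untreated parental line then overlapped. The part of these levels in the Chrna3 and Chrna5 differences was not tested. Of the 12 markers, 7 were called higher and 2 lower in the clone than in the parental line with RA, where 12.9% of all genes tested were called higher and 10.2% lower. Hand1, 1 of the 7, passed the filter through the clone RA arrays alone. Phox2a, a transcription factor that specifies autonomic neurons and is known to act on receptor genes of this lineage, was 1 of the 7, at 1.11 ± 0.30 (adjusted p = 0.0398). The 2 markers called lower were Dbh and Gata3. Their mean levels were -3.28 and -2.72 in the clone with RA, against 0.63 and -0.02 in the parental line with RA.

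Chrnb2, which encodes the beta subunit that pairs with Chrna4 in brain receptors and can join Chrna3 in ganglia, was higher on every clone array than on any parental array. Its level was 1.42 and 1.47 in the clone with RA, 0.39 and 0.16 in the untreated clone, -0.32 and -0.02 in RA-treated parental cells and -0.88 and -0.44 in untreated parental cells. No 2 groups overlapped, and within each line the RA arrays lay above the untreated ones. As for Chrna3, the share of all genes in which no 2 groups overlap was not counted. Nor was the share with RA arrays above untreated arrays in both lines. After RA the clone was above the parental line by 1.61 ± 0.29 (adjusted p = 0.00854), or 3.06-fold. Averaged over treatments, where slide row cancels, the clone was above the parental line by 1.27 ± 0.20 (adjusted p = 0.00433), or 2.42-fold. The averaged difference was called under all 19 settings that could give it, at 1.11 to 1.38. The difference with RA was called under 19 of 20, and was lost when only the groups compared were fitted (adjusted p = 0.0535). Untreated, the difference was 0.93 ± 0.29 (adjusted p = 0.099), and the RA responses were 1.17 in the clone (adjusted p = 0.0712) and 0.49 in the parental line (adjusted p = 0.533). The 4 clone and 4 parental arrays did not overlap for 25.3% of all genes measured on every array.

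Setting probes against each other within an array cancels the scaling of that array, and only shifts between groups can then be read. The log2 value of Chrnb2 minus that of Chrnb4 averaged 3.90 ± 0.14 in the clone with RA, 2.66 ± 0.63 in the untreated clone, 2.52 ± 0.12 in the parental line with RA and 0.72 ± 0.33 in untreated parental cells (SD, 2 arrays each). It was lowest on both parental untreated arrays, at 0.49 and 0.95, and highest on both clone RA arrays, at 3.80 and 4.00. Chrna3 minus Chrnb4 averaged 2.01 ± 0.44 in the clone with RA, 0.69 ± 0.15 in the untreated clone, 0.31 ± 0.07 in the parental line with RA and 0.11 ± 0.14 in untreated parental cells. Chrna5 minus Chrna3 varied least, with group means of -1.91 to -1.66 and ranges that overlapped in all 4 groups.

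**Figure D2:**
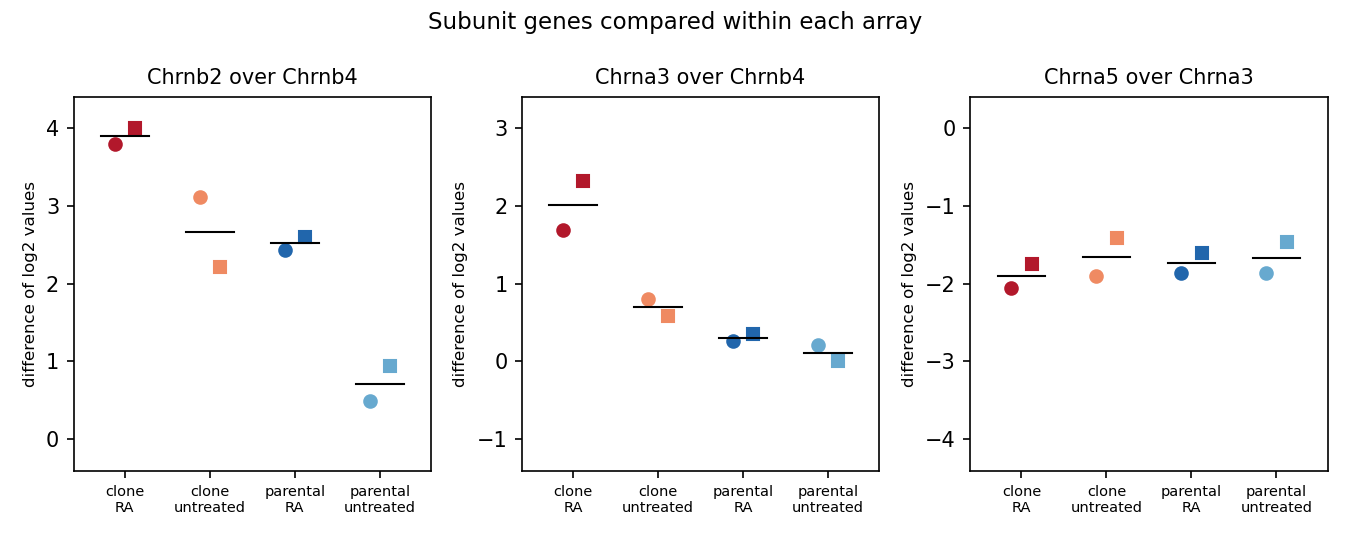
Differences of log2 values between pairs of receptor genes on the same array, by group (circles are replicate 1, squares replicate 2, bars the mean of 2 arrays). The height of a panel depends on the probes and only shifts between groups can be read: Chrnb2 over Chrnb4 averages 3.90 in the clone with RA and 0.72 in untreated parental cells, while Chrna5 over Chrna3 stays between -2.06 and -1.41 on the 8 arrays.

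Chrna7, whose channel is highly permeable to calcium, was brightest in untreated parental cells. It read -3.29 and -4.65 on clone RA arrays, -3.35 and -3.55 on untreated clone arrays, -4.27 and -4.72 on parental RA arrays and -2.58 and -2.28 on parental untreated arrays. The parental untreated pair stood above the other 6 arrays, and the range of the clone RA pair overlapped those of clone untreated and parental RA arrays. As for Chrnb4, the share of all genes with 1 group apart in this way was not counted. The probe is printed as 10 spots on each array, and the spots of an array had an SD of 0.08 to 0.29. The spots of the clone RA arrays did not overlap, with a lowest spot of -3.72 on replicate 1 and a highest of -4.46 on replicate 2, so these arrays differed by more than the spread between spots. RA minus untreated in the parental line was -2.06 ± 0.46, a 4.17-fold lower intensity that did not pass the test (adjusted p = 0.0981). No clone array enters this difference, and it stayed at -2.06 without clone RA replicate 1, the array marked by the scanner software. Only its SE changed, from 0.46 to 0.32, since the groups share 1 estimate of the spread and the clone RA arrays lay far apart. Averaged over the lines, RA minus untreated was -1.29 ± 0.33 (adjusted p = 0.0704). It was -1.63 without clone RA replicate 1, the higher of the clone RA arrays for this gene. Clone minus parental with RA was 0.52, with a 95% interval of -0.57 to 1.62.

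**Figure D3:**
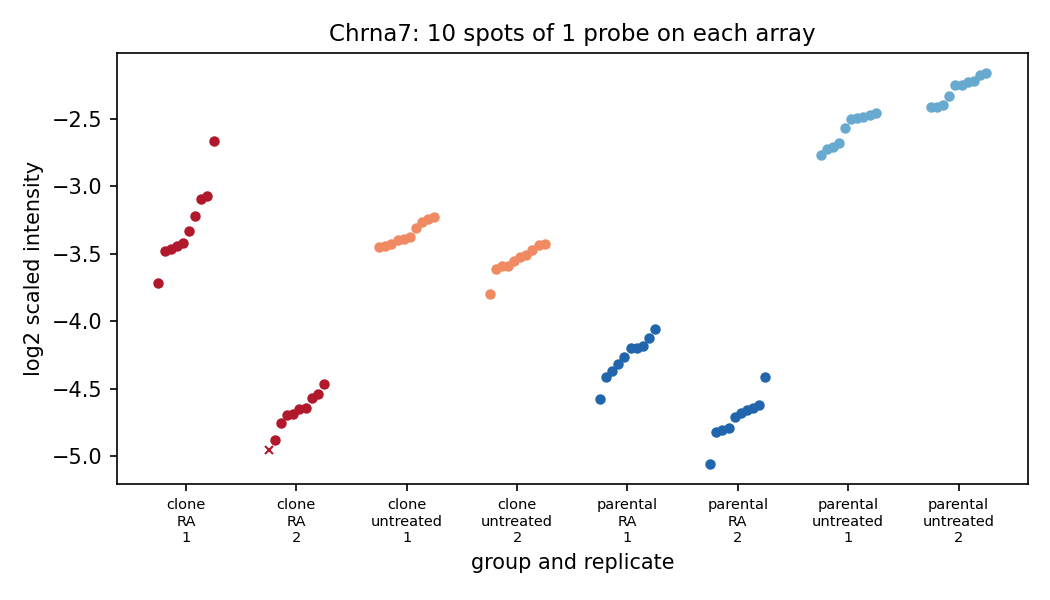
The 10 spots of the Chrna7 probe on each array, as log2 intensity relative to the array's 75th percentile and sorted within the array (a cross is a spot marked as an outlier by the scanner software and left out). Spots of 1 array lie close together, the clone RA arrays are apart from each other at means of -3.29 and -4.65, and both parental untreated arrays lie above all other arrays' means at -2.58 and -2.28.

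Chrna4, Chrm1, Chrm2 and Chrm3 were above background on at most 1 array each and were not tested. The Chrna4 probe read -5.27 and -4.99 on clone RA arrays, -7.88 and -8.06 on untreated clone arrays, -7.54 and -8.60 on parental RA arrays and -6.84 and -7.81 on parental untreated arrays. Only clone RA replicate 2 was well above background, and its intensity of 30.3 units and the 12.2 units of clone RA replicate 1 compare with 2.2 to 3.5 units on the other 6 arrays. Folds given below as "at least" are lower bounds. They set a group against the lowest signal well above background on each array of the other group. Where the probe's own value on that array was higher, it was used. None is given for Chrna4, because clone RA replicate 1 was itself not well above background.

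Of the muscarinic genes, Chrm4 was the one with a measured level, and its groups overlapped throughout. It read -2.41 and -4.03 on clone RA arrays, -3.89 and -4.25 on untreated clone arrays, -4.64 and -3.08 on parental RA arrays and -4.34 and -3.96 on parental untreated arrays, of which the first was not well above background. The arrays of each RA group were further apart than the group means, and the 95% interval of RA minus untreated in the clone ran from -0.71 to 2.42 (adjusted p = 0.505). Chrm2 was well above background on 0 arrays. Of the 2 Chrm1 probes, 1 was above background on clone RA replicate 1, at -4.61, while replicate 2 of that group read -8.14, and the other probe was above background on 0 arrays. Chrm3 was above background on clone RA replicate 2, at -5.70. For Chrm1 and Chrm3 the bound on a fold was under 1, so none is given, and a level below background does not show that a transcript is absent.

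**Figure D4:**
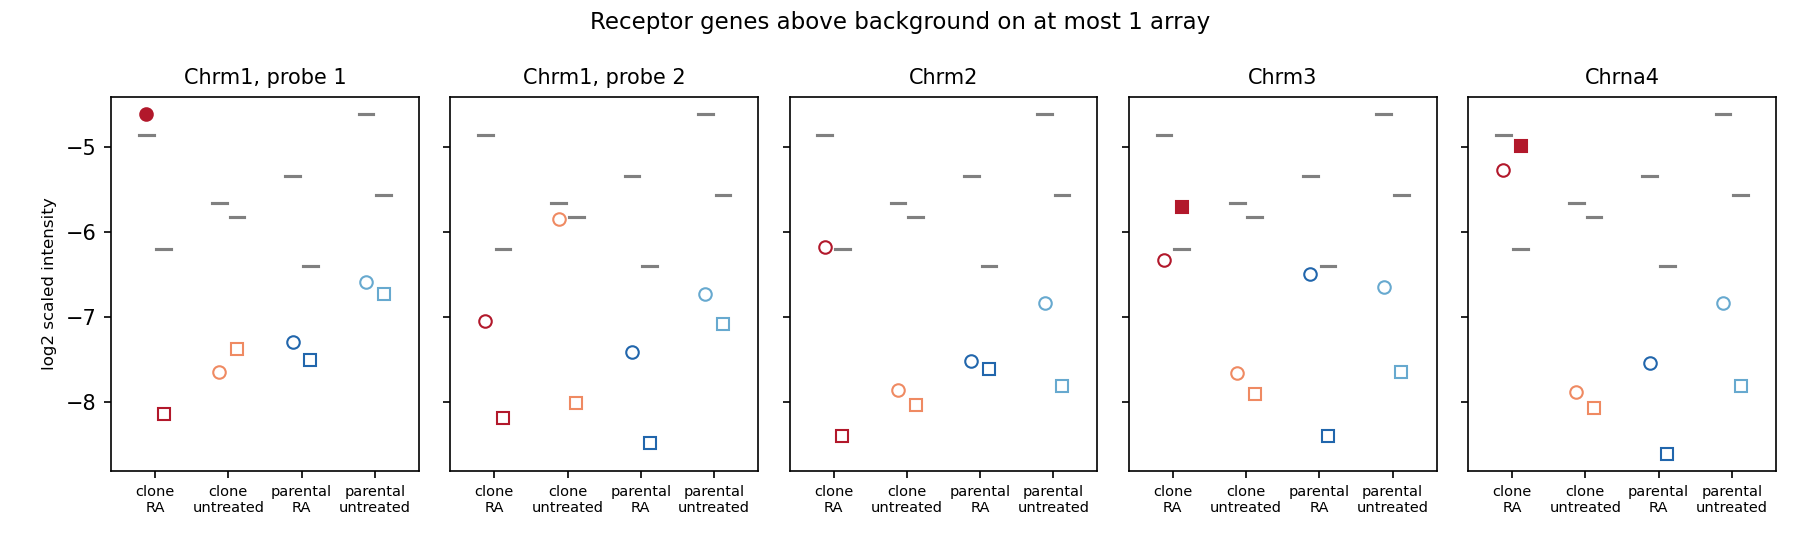
Probes of the receptor genes above background on at most 1 array, as log2 intensity relative to the array's 75th percentile, by group (circles are replicate 1, squares replicate 2, filled marks are well above background and hollow marks are not; grey dashes are the lowest level well above background on that array). Both Chrna4 values of the clone with RA, -5.27 and -4.99, lie above its other 6 values, while each Chrm1 and Chrm3 signal above background is on 1 array of a pair.

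Counted over the 6 tested genes, the clone with RA against the parental line with RA gave 3 called higher (Chrna3, Chrnb2 and Chrna5) and 0 lower, where 23.1% of all genes tested were called, 12.9% higher and 10.2% lower. The median log2 difference of the 6 genes was 1.13, and that of all genes tested was 0.11. Untreated, 0 of the 6 were called between the lines, where 9.81% of all genes were, with a median of -0.42 beside 0.11. RA minus untreated gave 0 calls in the clone, where 4.63% of all genes were called, and 0 in the parental line, where 1.12% were. The medians of the 6 genes were 0.93 in clone cells and -1.15 in parental cells, beside 0.02 for all genes in each. The difference between the RA responses gave 0 calls among the 6 genes and was called for 0.206% of all genes. Averaged over treatments, Chrnb2 and Chrna3 were called higher in the clone, where 27.7% of all genes were called and 16.1% were higher; the Chrna3 average of 0.75 ± 0.22 (adjusted p = 0.043) joins opposite signs in RA and untreated cells and was called under 7 of 19 settings. The average RA difference gave 0 calls, where 5.83% of all genes were called. The comparisons share arrays, so their values are set side by side and not counted together. Where limma called 0 of the 6 genes, unadjusted p-values under 0.05 were given to Chrnb2 and Chrnb4 between untreated lines, to Chrna3, Chrna5, Chrna7 and Chrnb4 for RA in the parental line, and to Chrna3 and Chrnb2 for RA in the clone. They were also given to Chrna3, Chrna5 and Chrnb4 for the difference between RA responses, and to Chrna7, Chrnb2 and Chrnb4 for the average RA difference. Of all 26258 genes tested, 6237 had such a p-value between untreated lines, 3787 for RA in the parental line and 5664 for RA in the clone. For the difference between RA responses 3637 genes had one, and for the average RA difference 5959.

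**Figure D5:**
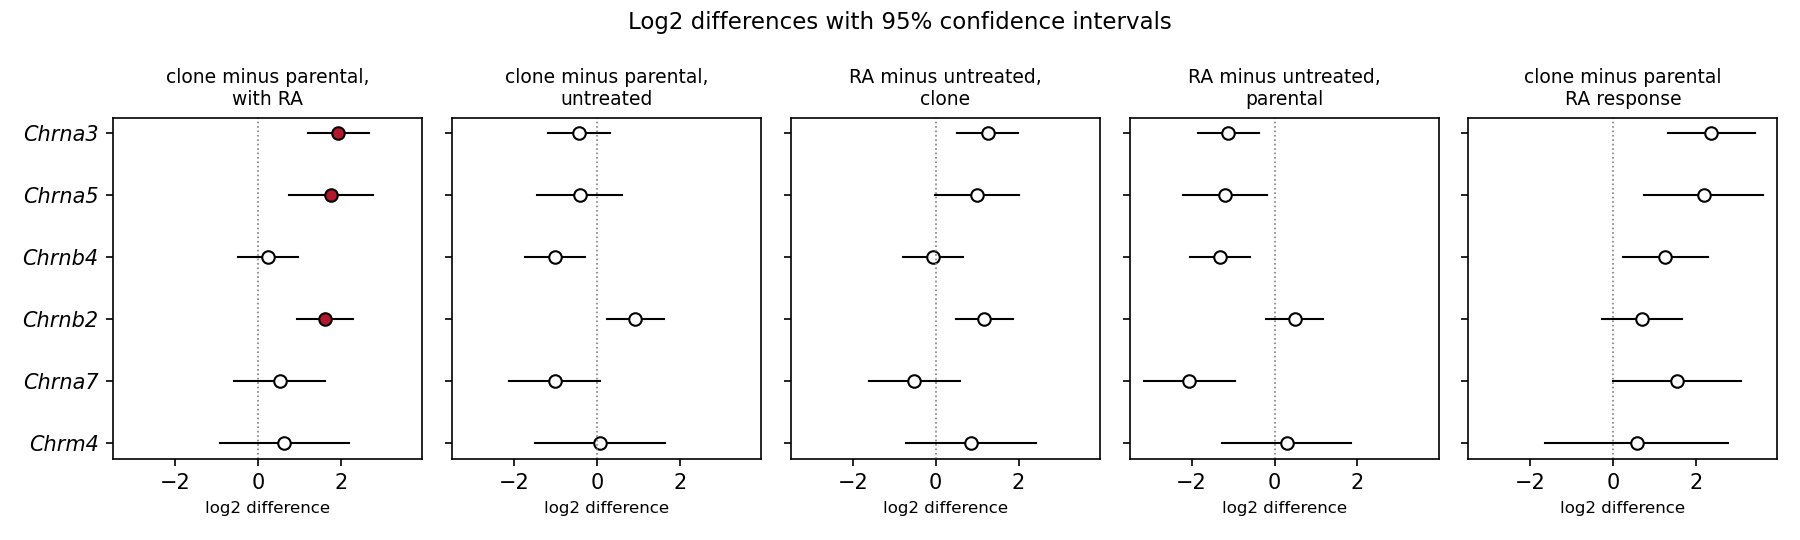
Log2 differences of the 6 tested receptor genes in 5 comparisons, with 95% confidence intervals from the limma fit; filled marks passed the test at an adjusted p under 0.05 over all genes and hollow marks did not. The 3 filled marks are Chrna3, Chrna5 and Chrnb2 in the clone minus the parental line with RA, at 1.94, 1.77 and 1.61.

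By Pearson correlation of levels over the 8 arrays among 15173 other genes with a symbol, the genes most like Chrna3 were Ptgs1 (r = 0.962), Clcn2 (r = 0.96) and its neighbour Chrna5 (r = 0.958). Those most like Chrna5 were Fibp (r = 0.983), Fam110b (r = 0.966) and Inpp1 (r = 0.958), and those most like Chrnb2 were Nt5c2 (r = 0.982), Ssc5d (r = 0.981) and Gnb3 (r = 0.981). These values describe 8 arrays of 4 groups, and the genes of each comparison share those arrays.

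Of 11 other acetylcholine receptor genes, 6 were tested and 0 were called in any comparison between 2 groups, beside 1.12% to 23.1% of all genes. Averaged over treatments, 1 of the 6 was called higher in the clone, where 16.1% of all genes were. Chrnb3, Chrnd and Chrne were above background on 0 arrays, and Chrna9 and Chrna10 on 1 each. Chrna1, the alpha subunit of the muscle receptor, was above background on 1 clone RA array, both untreated clone arrays and 0 parental arrays, so it entered the test through the clone alone. Untreated, the clone was at least 1.19-fold higher. With RA no bound is given, because only 1 clone RA array was above background. Chrna2, another neuronal alpha subunit, read -1.26 and -2.65 on clone RA arrays, -1.88 and -2.22 on untreated clone arrays, -2.39 and -0.98 on parental RA arrays and -1.95 and -1.91 on parental untreated arrays, with overlap among all groups. The Chrm5 probe, for a muscarinic receptor coupled to Gq, was above background on 1 clone RA array at -2.31 and 1 parental untreated array at -2.92, while their partners read -8.09 and -6.60.

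Nicotinic receptors need chaperones to assemble and are held back by prototoxins, small proteins anchored at the membrane. Of 15 such genes on the array, 11 were tested, and in the clone against the parental line with RA 2 were called higher and 1 lower, beside 12.9% and 10.2% of all genes. Tmem35a, which encodes the assembly chaperone NACHO, read -4.51 and -4.76 on clone RA arrays, -7.82 and -7.48 on untreated clone arrays, -7.47 and -8.08 on parental RA arrays and -5.59 and -7.25 on parental untreated arrays. It was above background on the clone RA arrays and on no other, and entered the test through them alone. The clone with RA was at least 2.36-fold higher than the parental line with RA and at least 2.17-fold higher than the untreated clone. Lynx1, a prototoxin that dampens nicotinic receptors, was higher in the clone with RA by 1.87 ± 0.52 (adjusted p = 0.0412), and Ubqln1, a ubiquitin-like protein that limits receptor delivery to the surface, was lower by -1.28 ± 0.28 (adjusted p = 0.018). Ric3, a chaperone of Chrna7 receptors, read -0.25 and -0.03 on clone RA arrays, -0.29 and -0.11 on untreated clone arrays, -0.14 and 0.19 on parental RA arrays and -0.50 and -0.43 on parental untreated arrays.

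Downstream of muscarinic receptors, 17 of 19 genes of the G protein and phospholipase path were tested, and in the clone against the parental line with RA 7 were higher and 2 lower, beside 12.9% and 10.2% of all genes, with a median of 1.19 beside 0.11 over all genes. Prkca, a protein kinase C activated by diacylglycerol, read 3.11 and 3.08 on clone RA arrays, 1.45 and 1.59 on untreated clone arrays, 0.26 and -0.51 on parental RA arrays and 0.91 and 0.21 on parental untreated arrays. With RA it was higher in the clone by 3.22 ± 0.37 (adjusted p = 0.00158). Plcb3, a phospholipase C driven by Gq, was higher by 2.66 ± 0.36 (adjusted p = 0.00272), and Itpr1, a calcium release channel of the endoplasmic reticulum, by 2.60 ± 0.29 (adjusted p = 0.00136). Itpr3, Gnaq, Gnao1 and Gng2 were higher by 1.18 to 1.44. Gna11, a close relative of Gnaq, was lower by -1.29 (adjusted p = 0.0198). Gng3, a neuronal gamma subunit, was lower in the clone by -1.86 with RA and by -4.47 untreated (adjusted p = 0.0148 and 0.000791), and higher with RA in the clone by 1.86 (adjusted p = 0.0448).

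Receptor kinases, arrestins and RGS proteins end receptor signalling. Of 12 such genes tested, 5 were higher and 1 lower in the clone against the parental line with RA, beside 12.9% and 10.2% of all genes. Of the 5, Rgs4, Rgs5 and Rgs8 passed the filter through clone arrays alone. Rgs4 and Rgs8, which speed the switching off of G proteins, were above background on all 4 clone arrays and on 0 parental arrays. With RA, Rgs4 was at least 59.9-fold higher in the clone and Rgs8 at least 64.1-fold; untreated, the bounds were 26.2-fold and 13.7-fold. Rgs10 was higher in the clone by 2.64 ± 0.30 with RA (adjusted p = 0.00144) and by 1.53 ± 0.30 untreated (adjusted p = 0.0218), and fell by 1.85 with RA in the parental line (adjusted p = 0.0451). Arrb1, an arrestin that uncouples and internalises receptors, was higher by 1.72 ± 0.26 with RA (adjusted p = 0.00446), and Grk6, a receptor kinase, was lower by -1.30 ± 0.30 (adjusted p = 0.0226).

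Of the 7 channels known to be gated through muscarinic receptors, 3 were tested. Kcnq5, a subunit of the M-current channel that muscarinic receptors close, read -1.47 and -0.87 on clone RA arrays, -2.18 and -1.64 on untreated clone arrays, -3.53 and -2.24 on parental RA arrays and -2.82 and -3.41 on parental untreated arrays. It was higher in the clone with RA than in the parental line with RA by 1.71 ± 0.50 (adjusted p = 0.0484). Kcnq3 was above background on 0 arrays.

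Among the enzymes and transporters of acetylcholine, 4 of 6 genes were tested, and Ache and Slc18a3 were called in opposite directions. Ache, the enzyme that breaks acetylcholine down, read 0.17 and 0.43 on clone RA arrays, -2.03 and -2.29 on untreated clone arrays, -3.49 and -2.67 on parental RA arrays and -2.52 and -2.27 on parental untreated arrays. It was higher in the clone with RA than in the parental line with RA by 3.38 ± 0.35 (adjusted p = 0.00101) and than in the untreated clone by 2.46 ± 0.35 (adjusted p = 0.0217). Slc18a3, the vesicular transporter of acetylcholine whose gene lies within that of Chat, read -2.81 and -2.94 on clone RA arrays, -1.74 and -1.32 on untreated clone arrays, -0.73 and -0.96 on parental RA arrays and 0.14 and 0.16 on parental untreated arrays. It was lower in the clone by -2.03 with RA and by -1.68 untreated (adjusted p = 0.00287 and 0.0112), and fell by 1.35 with RA in the clone (adjusted p = 0.0448). Slc5a7, the choline transporter, and Bche were above background on 0 arrays.

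A list of 9 genes, all tested, held factors known to act on receptor gene promoters and also Nrg1, which is not a promoter factor. Of the 9, 3 were called higher in the clone with RA than in the parental line with RA and 0 lower, beside 12.9% and 10.2% of all genes. Phox2a, described above, and Nrg1 were among the 3. Nrg1, a growth factor that raises receptor expression at synapses, read 3.40 and 3.20 on clone RA arrays, 2.64 and 2.58 on untreated clone arrays, -4.45 and -5.04 on parental RA arrays and -3.02 and -2.52 on parental untreated arrays. It was higher in the clone by 8.05 ± 0.32 with RA (adjusted p = 5.35e-05) and by 5.38 ± 0.32 untreated (adjusted p = 0.000262). In the parental line it fell by 1.98 with RA (adjusted p = 0.046). Sp1, Sp3, Sox10, Rest and Egr1 were not called in any of the 7 comparisons.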

How the data were processed

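RNA of 8 samples was hybridised to one-colour Agilent arrays of design 028005, with a grid built on mm9, and lay on 1 slide. Per the file headers, Feature Extraction 10.7.3.1 subtracted background and detrended each array, and the deposited intensity values are not scaled between arrays. The authors' deposited log2 values are scaled per array near the 75th percentile and were used as an alternative. Here log2 intensity minus the 75th percentile over 62976 spots less 3671 controls was used, without outlier spots, and spots of a probe were averaged. A probe was kept when above background on at least 2 arrays, with over 0.5 of its spots above on each, which kept 36635 of 55681 probes. The brightest probe stood for a gene, giving 26258 genes, of which 15174 have a symbol. No 2 arrays held identical values.

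All 8 arrays were fitted in limma 3.58.1 (R 4.3.3) with 1 mean per group, 4 residual and 2.99 prior degrees of freedom, and genes were called where the p adjusted by Benjamini-Hochberg over all genes was under 0.05. The number of arrays limits the precision. The fit was checked on simulated data. The alternatives were normexp (offset 50, on median signals, since the scanner tables hold no mean signal), quantile normalization, the authors' log2 values, other filters, probe rules, spot and variance rules, the slide side as a block, only the groups compared, and leaving out each array. The receptor genes, the 8 gene lists, 6 marker lists and motifs were chosen with earlier results of these data known. Genes named from the lists were those called in any comparison and up to 3 others of each list. The 3 genes most like a called receptor gene were ranked by Pearson r. Array gene names were updated through RefSeq where an identifier matched. Some genes of the lists entered the counts but are not reported here by name.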

Additional observations from a re-analysis of the deposited data

Results flagged for a closer look

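Chrna3 and Chrna5 stood out because their RA arrays lay above the untreated arrays in the clone and below them in the parental line, with no overlap within either line. The clone's RA response minus the parental one was 2.37 for Chrna3 and 2.19 for Chrna5 on the log2 scale. The test of that difference gave adjusted p = 0.0924 and 0.183, so neither passed. Such opposite separation was seen for 2136 of 26236 genes, or 8.14%, and the slide row goes with this difference. Without clone RA replicate 1 the values were 2.61 and 2.58 (adjusted p = 0.0934 and 0.14).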

How the results depend on the processing

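No paired analysis was possible because the labels give the groups no shared replicate numbers. With slide side as a block, the receptor genes called were the same in number in all 7 comparisons. The clone with RA against the parental line with RA gave 3 calls or 2 (Chrna5 lost), except that fitting only the groups compared gave 1 (Chrna3), and no filter lost Chrna5 and called Chrna4, whose parental signals were below background; leaving out an array gave 2 to 3. Between untreated lines 0 genes were called under every alternative. For RA in the parental line, where 0 were called, quantile normalization called 1, probes above background on all arrays 2, and leaving out an array 0 to 1 (Chrna7 without either clone RA array). For RA in the clone, quantile normalization, probes above background on all arrays and the trended, robust variance called 2 each, against 0. For the difference between RA responses, probes above background on all arrays and the trended, robust variance called 1 each (Chrna3, adjusted p = 0.0343 and 0.0386), against 0. For the average line difference, the count of 2 became 1 (Chrnb2 alone) under normexp, the deposited log2 values, no filter and every probe on its own (quantile normalization gave Chrna7 in place of Chrna3), and 1 to 2 when an array was left out. For the average RA difference, quantile normalization called 1, and probes above background on all arrays and the trended, robust variance 2 each, against 0; leaving out an array gave 0 to 1. The cause of these changes was not tested. Chrna5 with RA was also lost under normexp (adjusted p = 0.0952), quantile normalization (0.297), no filter (0.0684) and only the groups compared (0.0742). No difference called here changed sign under an alternative. Chrna7, called under quantile normalization alone both for the clone's RA response and for the average line difference, ranged over the settings from -1.29 to 0.16 in that response and from -0.67 to 0.09 in that line difference. Over all genes, calls between untreated lines were 783 to 3340 (2577 here), with RA 2622 to 7279 (6077), for RA in the parental line 0 to 801 (293), in the clone 0 to 3039 (1215), for the difference of responses 0 to 1006 (54), for the average line difference 4474 to 9135 (7275) and for the average RA difference 0 to 3211 (1530). Normexp moved the median of all genes between untreated lines to -0.19 and quantile normalization that with RA to -0.15, from 0.11 each. Dim probes limit what can be said of Chrna4 and the muscarinic genes.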

Other observations

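A list of 5 genes taken as lying near the receptor cluster on chromosome 9 was measured as well, of which Adamts7 and Morf4l1 are not among the closest annotated genes on either side. Of the 5, 4 were tested, and 1 was called between the lines with RA, where 23.1% of all genes were called. Ireb2, which controls iron metabolism, read -1.68 and -1.59 on clone RA arrays, -1.17 and -0.88 on untreated clone arrays, -0.56 and -0.23 on parental RA arrays and -0.16 and -0.33 on parental untreated arrays, and was lower in the clone by -1.24 ± 0.27 with RA (adjusted p = 0.0191). Psma4, a proteasome subunit gene next to Chrna5, read 3.79 and 4.11 on clone RA arrays, 4.42 and 4.66 on untreated clone arrays, 4.50 and 4.37 on parental RA arrays and 4.28 and 4.33 on parental untreated arrays, and was not called.

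Markers of other cell types were low beside those of the neuroblast lineage. The summed scaled intensity of 6 blood vessel and microglial markers was 1.17 to 1.54 on clone arrays and 0.248 to 0.558 on parental arrays, with Cdh5 and Cx3cr1 above background on 0 arrays. It moved with the line, as Chrnb2 did, but Tmem119 alone made up 62.2% to 81.8% of it on clone arrays. On parental arrays Tmem119 made up 19.1% to 60.3%. Without Tmem119, a choice made after seeing the data, the sum of the other 5 was 0.243 to 0.581 on clone arrays. It was 0.196 to 0.258 on parental arrays, so the lines then overlapped. The part of these levels in the Chrnb2 difference was not tested. The sum of 7 Schwann cell and glial markers was 0.663 to 0.716 on clone arrays and 0.932 to 1.86 on parental arrays. The sums of 6 fibroblast markers (1.44 to 3.41), 8 hippocampal neuron markers (0.367 to 0.945) and 6 skeletal muscle markers (17.1 to 27.5) overlapped between the lines.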
